A study of Mus musculus with 32 samples.

Results

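Heme synthesis and iron uptake were followed through 9 genes chosen by symbol: Alas2, Alad, Uros, Urod, Cpox, Ppox, Fech, Tfrc and Slc25a37. Of these, 8 had a row among the 27728 genes of the count table, and Ppox was not analysed here. All 8 passed the filter on low counts in each comparison. The lowest counts were those of Alas2 in untreated adult libraries, where they fell to 4.

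Heme is built from glycine and succinyl-CoA by a chain of enzymes that begins and ends in mitochondria. Alas2 encodes the erythroid form of the enzyme of the first step, and its paralog Alas1 encodes the form found in most other cells. Alad, Uros, Urod and Cpox encode enzymes of the middle of the chain, and Fech encodes ferrochelatase, which inserts iron into the ring. Tfrc encodes the transferrin receptor, through which maturing red cell precursors take up iron, and Slc25a37 encodes mitoferrin-1, a carrier that brings iron into mitochondria. Iron regulatory proteins bind a hairpin called the iron-responsive element, which blocks translation when it lies in the 5′ UTR of an mRNA and stabilizes Tfrc mRNA when it lies in the 3′ UTR.

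RNA was sequenced in 32 libraries of mouse hematopoietic progenitors, sorted for cKit and against lineage markers and Sca1, in 9 groups. The study varied U2af1, which encodes a splicing factor and was itself not analysed here. The 15 fetal libraries came from liver at day E14.5. In batch A they were the flox control, U2af1(flox/flox) without Cre (n = 3), the heterozygous deletion, Vav1-Cre/U2af1(wt/flox) (n = 3), the homozygous deletion, Vav1-Cre/U2af1(flox/flox) (n = 3), and 1 library with Vav1-Cre only. Batch B held another Vav1-Cre only library and the S34F knock-in, Vav1-Cre/U2af1(wt/S34F) (n = 4). Vav1-Cre acts across blood cells, and the flox control lacks it, so deletion and Cre cannot be told apart in the comparisons with that control. The 17 adult libraries came from bone marrow. All carried Mx1-Cre, rTA and the transgene tgU2AF1(WT). Untreated wild type mice were U2af1(wt/wt) (n = 3). The other mice were U2af1(flox/S34F), received polyinosinic-polycytidylic acid, and were fed doxycycline in their chow. There were 4 libraries at 1250 ppm, 6 at 2500 ppm and 4 at 10000 ppm. Each dosed group therefore differed from the untreated group in genotype, injection and doxycycline at once. The labels name no pooling of animals and no batch for the adults.

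Total counts ran from 26.6 M to 71.3 M per library. Levels are given as CPM, the count of a gene scaled to the total of its library. Kit, the receptor used in the sort, was detected in all 32 libraries, and Ly6a was not analysed here. A summed level of 9 erythroid marker genes, among them Gata1, Epor, Slc4a1, Car1 and Hbb-bt, is given beside the results it moves with. In such bulk samples, fewer erythroid cells and less RNA per cell cannot be told apart.

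The iron-responsive elements are shown for Alas2 and Tfrc, the only ones of these genes with a match (Fech was not included in this search). The search took annotated UTRs of GENCODE M21 (GRCm38) and asked for an unpaired C, a stem of 5 pairs and a loop of the letters CAGTGN, printed in capitals. It found a match in 160 of 21901 genes (0.73%). In Alas2 the match lies in the 5′ UTR and is joined across an intron, on the plus strand between chrX:150547458 and 150552150. In Tfrc the 4 matches lie in the 3′ UTR on the plus strand, at chr16:32631219-32631248, chr16:32631598-32631627, chr16:32631663-32631692 and chr16:32631710-32631739, in that order below. A match is a description of the letters only, and binding was not measured.
Alas2 5′ UTR: ttggttcgtcctCAGTGCagggcaacagga
Tfrc 3′ UTR, site a: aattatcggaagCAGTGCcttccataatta
Tfrc 3′ UTR, site b: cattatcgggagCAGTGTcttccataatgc
Tfrc 3′ UTR, site c: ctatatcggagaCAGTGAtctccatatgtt
Tfrc 3′ UTR, site d: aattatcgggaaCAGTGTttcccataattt

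Among the other genes of heme and iron metabolism examined here, the same search found single matches in the 5′ UTRs of Fth1 and Ftl1, the ferritin subunits that store iron, and of Slc40a1, the iron exporter ferroportin. It also found a match in the 3′ UTR of Bola3, a gene of iron-sulfur cluster assembly. Slc40a1, with its match on the minus strand at chr1:45925464-45925493, is shown because its counts also differed between genotypes.
Slc40a1 5′ UTR: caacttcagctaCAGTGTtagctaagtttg

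The promoter of Alas2 was the only one among those searched for these genes with the letters AGATAA on either strand. AGATAA is only 1 form of the motif read by GATA factors. Other forms were not searched, so a promoter without a match here may still hold a GATA site. RefSeq promoter windows on GRCm38.p6 were taken from 250 bases before each start, for Alas2, Alad, Uros, Urod, Cpox and Tfrc. Of all 32851 windows, 9.99% held AGATAA. The match lay 86 bases before the Alas2 start. It is printed in capitals as its reverse complement in the stretch chrX:150547167-150547374, plus strand, which ends before the first annotated exon.
Alas2 promoter: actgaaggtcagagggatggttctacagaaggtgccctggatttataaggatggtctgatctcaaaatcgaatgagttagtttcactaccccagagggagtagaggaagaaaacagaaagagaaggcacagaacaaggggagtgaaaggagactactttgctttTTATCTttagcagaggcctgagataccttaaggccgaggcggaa

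Several genes overlap others on the opposite strand, and the use of strand in counting is not given in the sources used here. Alas2 (GRCm38 X:150547375-150570638) overlaps Apex2, Uros overlaps Bccip, Cpox overlaps Gpr15, and Slc25a37 overlaps predicted gene models on both strands. Values of these genes are uncertain to the extent that reads were shared. Alad (4:62509169-62519918), Urod (4:116989965-116994413), Tfrc (16:32608920-32632794) and Fech overlapped no annotated gene.

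Some libraries stood apart from the rest of their groups. In batch A, flox control replicate 3 was the lowest of its group in 8 of the 8 genes, and heterozygous deletion replicate 3 was the highest of its group in 8 of 8. The erythroid sum moved the same way: it was 768, 1460 and 1404 CPM in flox control replicates 3, 4 and 5, and 1227, 578 and 598 CPM in the heterozygous replicates 3, 4 and 5. In adults, 10000 ppm replicate 2 stood apart in Alas2. Untreated replicate 1 stood apart in Tfrc and untreated replicate 3 in Cpox. In these sums flox control replicate 3 lay nearer the other two heterozygous libraries than those of its own group, and heterozygous replicate 3 nearer the other two flox controls. The labels were used as given, and whether these 2 libraries carry the right labels was not tested. Calls that rest on these libraries are given with and without them, whereas correlations are given only with all libraries.

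**Figure D1:**
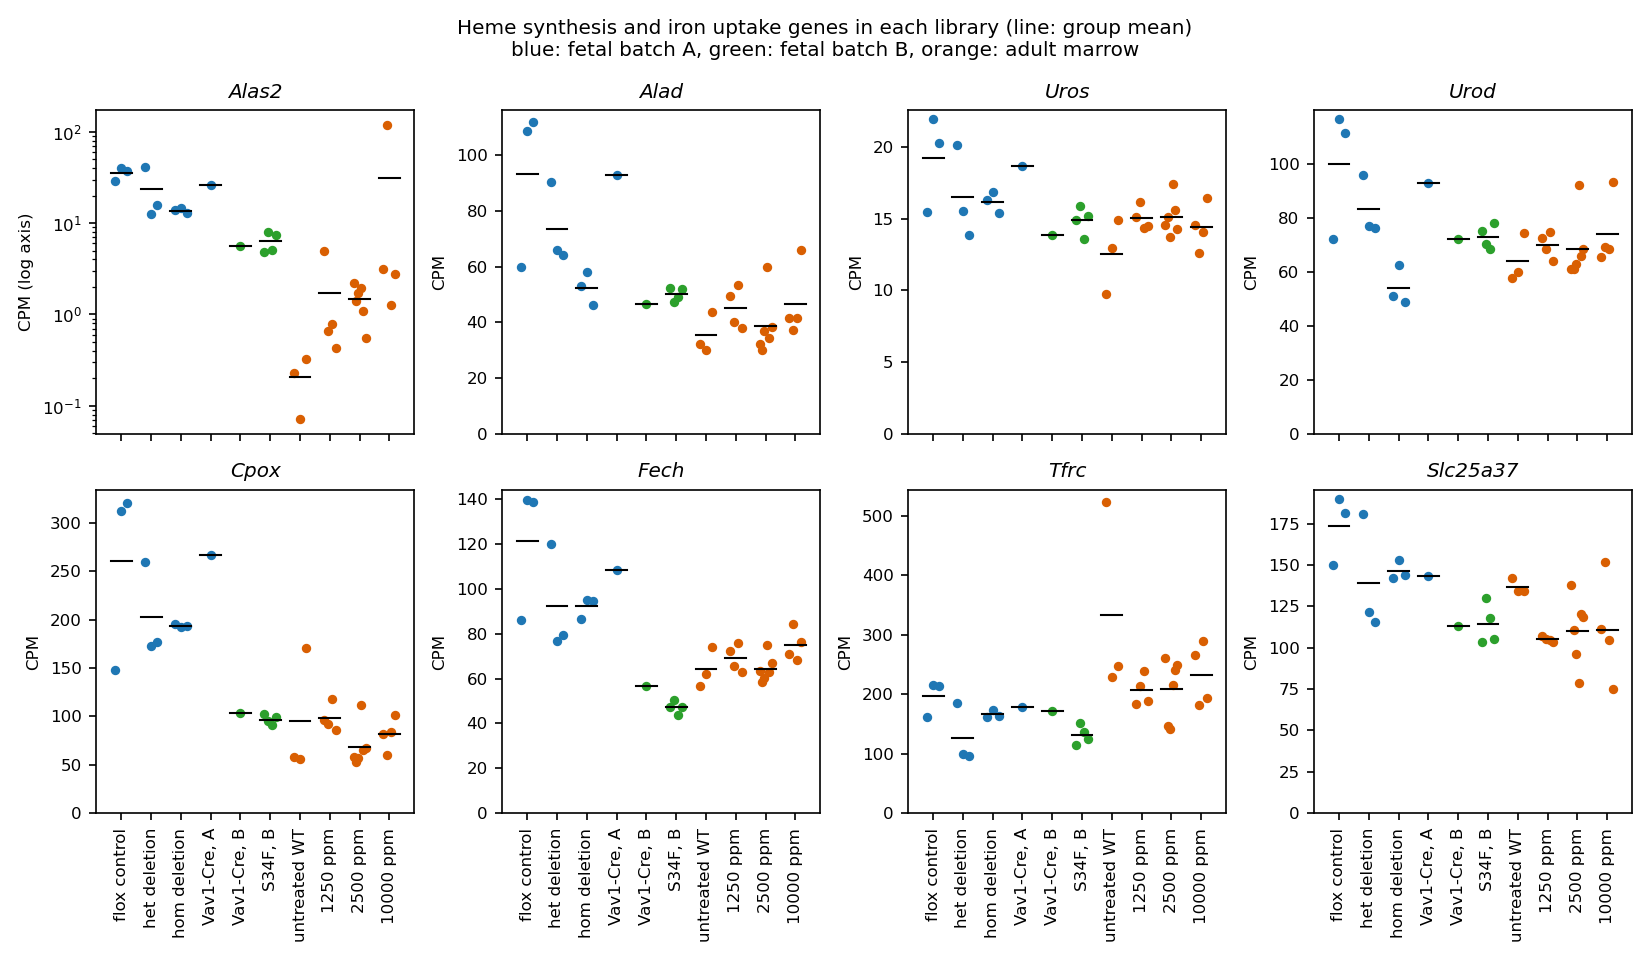
Level of each of the 8 genes (y axis, CPM, log axis for Alas2) in each library (points) by group (x axis; black line, group mean). Flox control replicate 3 is the lowest point of its group and heterozygous deletion replicate 3 the highest in every panel, and 1 of the 4 libraries at 10000 ppm is far above the rest in the Alas2 panel.

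Per kilobase of annotated exon, levels along the chain were uneven in the flox control. The length was that of all annotated exons of a gene together, 13838 bases for Fech and 1871 for Alad. It is not that of the mRNA expressed here, and the order depends on it. In CPM alone, Fech had a mean of 121.4 and Alad one of 93.4 in the flox control. Levels per kilobase were 49.9 ± 15.6 CPM for Alad, 39.1 ± 14.6 for Cpox, 38.6 ± 9.39 for Urod, 31.9 ± 4.91 for Tfrc and 28.9 ± 3.46 for Slc25a37 (SD, n = 3). Alas2 followed at 14.8 ± 2.41, Fech at 8.78 ± 2.21 and Uros at 5.38 ± 0.941 CPM per kilobase (SD, n = 3). Neighbours among the first 5 differed by less than the larger of their SDs, whereas Slc25a37 and Alas2 differed by more than either of theirs. In untreated adult marrow the order changed: Tfrc led at 53.9 ± 26.6 CPM per kilobase and Alas2 was last at 0.0863 ± 0.0526 (SD, n = 3).

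In batch A, 3 of the 8 genes were lower in the homozygous deletion than in the flox control: Alas2, Alad and Urod. The other 5 had negative log2 fold changes that did not pass the test, so that the median of the 8 was -0.44 against -0.02 over all 12678 genes tested. Calls were made in edgeR's quasi-likelihood test at a Benjamini-Hochberg adjusted p below 0.05 over all genes. In that comparison 41% of all genes were called in either direction and 22.4% as lower. The 3 of 8 called in either direction are near the share over all genes and are no result about these genes as a set.

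Alas2, the erythroid first-step enzyme, had 29.1, 40.4 and 37.1 CPM in flox control replicates 3, 4 and 5. It had 13.9, 14.51 and 12.8 CPM in the homozygous deletion, replicates 2, 3 and 4. The groups did not overlap, and the log2 fold change was -1.40 ± 0.36 (SE; 2.65-fold lower; adjusted p = 0.00939). Alas1, its paralog, moved the other way, from a mean of 461 ± 121 CPM to 747 ± 58.7 CPM (SD, n = 3), a log2 fold change of 0.66 ± 0.15 (SE; adjusted p = 0.00493).

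Alad, which joins 2 aminolevulinic acid molecules into the first pyrrole, had 59.7, 108.5 and 112 CPM in the flox control and 53.2, 58.2 and 46.1 CPM in the homozygous deletion. The groups did not overlap, but flox control replicate 3 lay within 2 CPM of the highest homozygous library. The log2 fold change was -0.86 ± 0.21 (SE; adjusted p = 0.00818). Urod, which makes coproporphyrinogen, had 72.1, 116.6 and 111.4 CPM in the flox control and 51.0, 62.4 and 48.7 CPM in the homozygous deletion. Again no library overlapped, with a log2 fold change of -0.92 ± 0.17 (SE; adjusted p = 0.00153).

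For the remaining enzymes the groups overlapped through flox control replicate 3. Cpox, the oxidase after Urod, had 148.4, 312.1 and 321 CPM in the flox control against 196.1, 192.1 and 193.4 CPM in the homozygous deletion (log2 fold change -0.46 ± 0.25, SE; adjusted p = 0.163). Fech had 86.2, 139.3 and 138.8 CPM against 86.6, 95.1 and 94.8 CPM (-0.43 ± 0.19, SE; adjusted p = 0.0998). Uros had a log2 fold change of -0.28 ± 0.15 (SE; adjusted p = 0.165).

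Tfrc, the first of the iron uptake genes, had 162.4, 215.3 and 214.6 CPM in the flox control and 162.0 to 174.3 CPM in the homozygous deletion, a log2 fold change of -0.27 ± 0.21 (SE; adjusted p = 0.327). For Slc25a37 it was -0.28 ± 0.15 (SE; adjusted p = 0.149). For both, the groups overlapped.

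In the heterozygous deletion no gene of the 8 passed the test against the flox control, where 0.0316% of all genes were called (4 genes, and 1120 at an unadjusted p below 0.05). All 8 log2 fold changes were negative, from -0.62 to -0.20, with a median of -0.34 against 0.00 over all genes. Tfrc was farthest from 0, at -0.62 ± 0.21 (SE; adjusted p = 0.422). Its levels were 185.8, 99.6 and 96.6 CPM in heterozygous replicates 3, 4 and 5. Replicate 3 lay within the range of the flox control and the other two lay below it. Alas2 was split in the same way, at 41.7 CPM in replicate 3, above all flox control libraries, and at 12.6 and 15.8 CPM in the other two, below them. For all 8 genes the groups overlapped.

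Between the homozygous and the heterozygous deletion, where 42.3% of all genes were called, Urod alone passed the test, with a log2 fold change of -0.67 ± 0.17 (SE; adjusted p = 0.00804). Its heterozygous libraries had 96.0, 77.1 and 76.5 CPM, all above the homozygous ones. Alad, at -0.53 ± 0.21 (SE; adjusted p = 0.0644), also did not overlap between the groups. Tfrc had the only log2 fold change above 0.1, at 0.34 ± 0.21 (SE; adjusted p = 0.213).

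**Figure D2:**
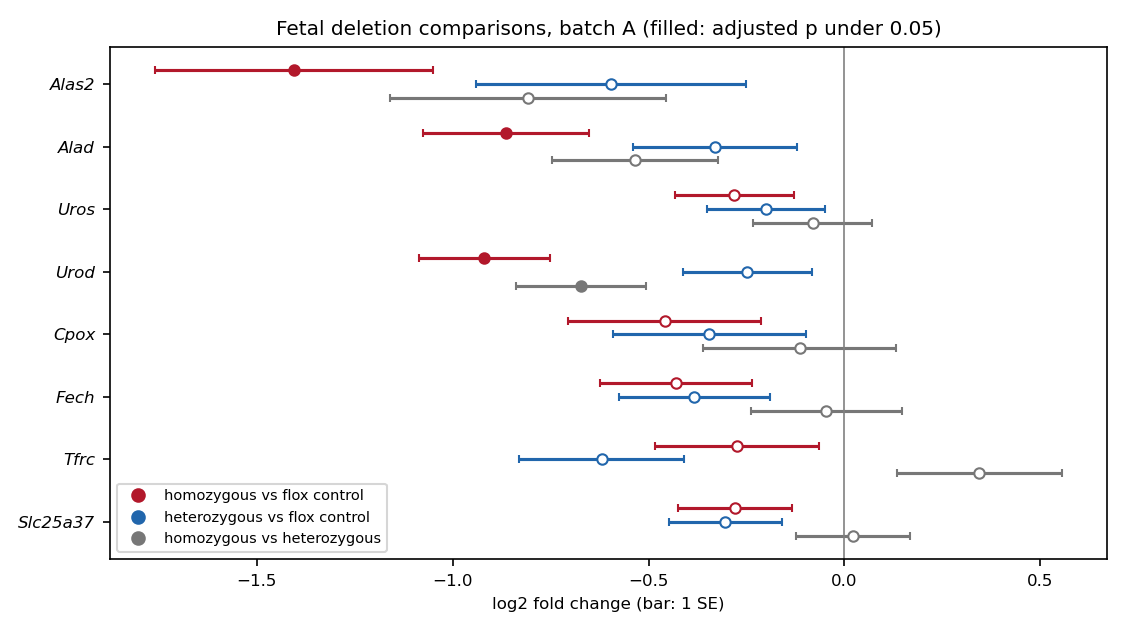
Log2 fold changes (x axis; bars, 1 SE) of the 8 genes in the 3 comparisons of batch A, with filled points at an adjusted p below 0.05. All 16 points against the flox control lie below 0, and 4 of the 24 points are filled: Alas2, Alad and Urod in homozygous against flox control, and Urod in homozygous against heterozygous deletion.

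The number of genes called depended on the 2 libraries that stood apart. Without flox control replicate 3, 6 of the 8 were lower in the homozygous deletion: Cpox (log2 fold change -0.73, adjusted p = 0.0011), Fech (-0.61, adjusted p = 0.00566) and Uros (-0.40, adjusted p = 0.0293) joined the first 3. Of all genes, 42.7% were then called. Without it, Alad and Cpox were lower in the heterozygous deletion (2 of 8, against 2.05% of all genes). Without heterozygous replicate 3, Alas2 (-1.29, adjusted p = 0.0299) and Tfrc (-0.98, adjusted p = 0.0299) were, against 0.281% of all genes.

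With both libraries left out, an alternative chosen after seeing the data, 8 of 8 genes were lower in the homozygous and 8 of 8 in the heterozygous deletion than in the flox control, where 45.9% and 4.36% of all genes were then called. Because the libraries were singled out by the levels of these same genes, those p-values are no independent support. In that fit Alas2 was at -1.50 ± 0.11 (SE) in the homozygous and -1.42 ± 0.12 (SE) in the heterozygous deletion, while Tfrc was at -0.37 ± 0.05 (SE) and -1.11 ± 0.06 (SE). Against the heterozygous deletion, Tfrc was then higher in the homozygous deletion by 0.74 ± 0.05 (SE, log2; adjusted p = 5.84e-06). The spread in that fit rests on groups of 2, 2 and 3 libraries.

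Markers of other cells moved with these comparisons, and their part in the results was not tested. All 9 erythroid markers had negative log2 fold changes in the homozygous deletion, 6 of them called, and the erythroid sum was 546 to 603 CPM there against 768 to 1460 CPM in the flox control. Gata1, the erythroid transcription factor, had a log2 fold change of -0.18 ± 0.19 (SE; adjusted p = 0.479), and Hbb-bt one of -0.51 ± 0.40 (SE; adjusted p = 0.347). The sum of 7 hepatocyte markers was 88.0 to 527 CPM in the flox control, 44.7 to 103 in the heterozygous and 11.1 to 26.7 CPM in the homozygous deletion. The sum of 8 macrophage markers was 95.7 to 101 CPM in the flox control and 38.5 to 60.7 CPM in the homozygous deletion. Kit, the receptor used in the sort, was itself lower in the homozygous deletion, at 239 to 324 CPM against 484 to 571 CPM in the flox control (log2 fold change -0.95 ± 0.10, SE; adjusted p = 8.11e-05). Of the macrophage markers, 6 of 7 tested were called lower and 1 higher, and all 7 hepatocyte, 5 megakaryocyte and 3 B cell markers were called lower, with medians of -4.71, -1.31 and -5.99 on the log2 scale for the last 3. Of 4 mast cell and basophil markers, 3 were called higher. No erythroid marker was at 0 in any library. Across the 9 libraries, after subtracting group means, the log2 level of each gene followed the log2 erythroid sum with a Pearson r from 0.865 for Urod to 0.976 for Fech, a description of values that share library and depth. These r values include flox control replicate 3 and heterozygous replicate 3, and were not computed without them.

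Other genes of heme and iron metabolism, in 4 lists, changed in both directions between homozygous deletion and flox control. Of their 35 genes tested, 17 were called, against 41% of all genes. The pooled count is near that share, so the counts below are no result about the lists as sets. Among 11 partners of heme synthesis, 2 rose and 1 fell: Alas1 and Pgrmc1 rose, and Fam210b fell (log2 fold change -0.68 ± 0.25, SE; adjusted p = 0.0471). Among 8 genes of iron handling, 2 rose and 4 fell. Tfr2, the second transferrin receptor, fell by 0.92 on the log2 scale, Slc11a2, the iron transporter of endosomes, fell by 0.80, and Steap3, a ferrireductase of endosomes, fell by 0.63.

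In the list of heme export, breakdown and sensing, 2 of 6 genes fell and none rose. Blvrb, a biliverdin reductase, was at -1.23 ± 0.28 (SE; adjusted p = 0.00532), and Hmox1, which opens the heme ring, at -1.11 ± 0.28 (SE; adjusted p = 0.0086). Of 10 genes of iron-sulfur cluster assembly, 3 rose and 3 fell, all by less than 0.4 on the log2 scale. Against the heterozygous deletion, Slc40a1 was higher in the homozygous deletion by 1.19 ± 0.17 (SE, log2; adjusted p = 0.000379). Median log2 fold changes of the 4 lists against the flox control lay between -0.19 and 0.07. In the heterozygous deletion no gene of the 4 lists was called (0.0316% of all genes were). In a further fit, flox control replicate 3 and heterozygous replicate 3 were both left out. In homozygous deletion against flox control, 7 partners and 4 genes of export, breakdown and sensing were then called (45.9% of all genes were). In the heterozygous deletion, 5, 3, 1 and 2 genes of the lists of partners, iron handling, cluster assembly and export were called (4.36% of all genes were).

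The S34F knock-in was compared with the 1 Vav1-Cre only library of batch B, and no gene of the 8 was called (1.79% of all genes were). The control was a single library, so the spread came from the S34F libraries alone. Alas2 had 4.82, 7.997, 5.08 and 7.34 CPM in S34F replicates 1 to 4 and 5.62 CPM in the control, which lay within their range. Tfrc had 115.3, 151.0, 137.3 and 124.9 CPM, all below the control's 172.2 CPM, with a log2 fold change of -0.37 ± 0.12 (SE; adjusted p = 0.126). Fech, at 43.7 to 50.5 CPM against 56.7 CPM, was at -0.25 ± 0.09 (SE; adjusted p = 0.159). Intervals of the difference (95%) reached from -0.35 to 0.71 for Alas2 and from -0.60 to -0.14 for Tfrc. Among the 4 lists, Blvrb (0.58 ± 0.10, SE; adjusted p = 0.0272) and Tfr2 (0.48 ± 0.09, SE; adjusted p = 0.0309) were higher in S34F.

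Levels also differed between the fetal batches. The Vav1-Cre only libraries had 26.1 CPM of Alas2 in batch A and 5.62 CPM in batch B, and 266.6 and 103.9 CPM of Cpox. With 1 library in each batch this difference has no replicate check. The erythroid sum was 1036 CPM in the first and 380 CPM in the second. Tfrc was nearly level between them, at 179.2 and 172.2 CPM.

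In adult marrow, Alas2 was the only gene of the 8 that passed any test between adult groups in the fit over all 17 adult libraries, and none of its calls was left without 10000 ppm replicate 2. It had 0.229, 0.0714 and 0.321 CPM in untreated replicates 1, 2 and 3, from 11, 4 and 16 counts. At 1250 ppm it had 4.94, 0.656, 0.786 and 0.428 CPM, and at 2500 ppm it ran from 0.546 to 2.22 CPM with a median of 1.56. At 10000 ppm it had 3.17, 118.8, 1.25 and 2.79 CPM in replicates 1 to 4. No dosed library overlapped the untreated ones, whereas the dosed groups overlapped each other. B cell markers moved with the same comparison: all 3 were called higher at each dose, and their sum was 0.261 to 1.38 CPM in untreated mice against 10.5 to 17.9 CPM at 1250 ppm, 3.34 to 24.7 CPM at 2500 ppm and 5.21 to 40.6 CPM at 10000 ppm. Of 7 macrophage markers tested, 4 were called higher at 1250 ppm, and none at 2500 or 10000 ppm, where 6 were positive with medians of 4.48 and 4.37 (log2). Between 10000 and 1250 ppm, where 18.1% of all genes were called, 4 of 5 megakaryocyte markers, 2 of 2 T cell markers tested (median 2.64, log2) and Kit were called higher. Of 9 erythroid markers 1 was called higher, and of 4 neutrophil and monocyte progenitor markers 1 lower. The part of these markers was not tested.

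At 10000 ppm against untreated wild type, where 1.27% of all genes were called, the log2 fold change of Alas2 was 7.26 ± 1.71 (SE; adjusted p = 0.0493). Against 1250 ppm, where 18.1% were called, it was 4.21 ± 1.24 (SE; adjusted p = 0.0282). Over the dosed libraries, where 10.7% of genes were called, Alas2 rose by 1.53 ± 0.36 (SE, log2) per doubling of dose (adjusted p = 0.0237). Without 10000 ppm replicate 2 these values fell to 3.54 (adjusted p = 0.103), 0.50 (adjusted p = 0.691) and 0.19 (adjusted p = 0.638), and no call was left.

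The calls for Alas2 were fragile in other ways. The call at 10000 ppm against untreated wild type was also lost without 10000 ppm replicate 1 (adjusted p = 0.0545), without untreated replicate 1 (adjusted p = 0.116), 2 (adjusted p = 0.199) or 3 (adjusted p = 0.147). The call against 1250 ppm and that of the trend were lost without 1250 ppm replicate 3, 4 or 5 (adjusted p from 0.0505 to 0.0828). DESeq2 gave no adjusted p for Alas2 in the adult comparisons.

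10000 ppm replicate 2 also had the highest levels of Hbb-bt and Slc4a1 among the adults. Hbb-bt, a beta-globin gene, was at 424 CPM there and at 0.464 to 19.2 CPM in the other adult libraries, and Slc4a1, the anion exchanger of the red cell membrane, was at 165.5 CPM against 0.0214 to 12.5 CPM. The summed erythroid level was 990 CPM, below the 1374 CPM of 10000 ppm replicate 4, in which Alas2 was at 2.79 CPM. 10000 ppm replicate 2 also had the highest adult sums of 3 T cell markers, at 6.23 CPM, and of 3 B cell markers, at 40.6 CPM. The next highest were those of 10000 ppm replicate 1, at 1.30 and 37.2 CPM. The part of all these markers in the Alas2 result was not tested.

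**Figure D3:**
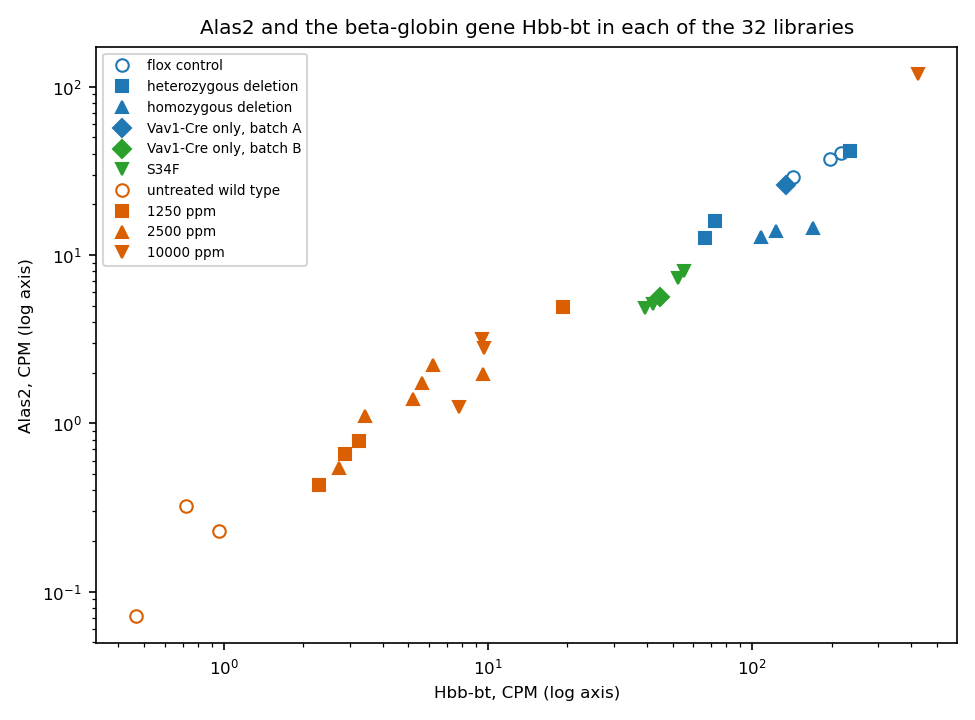
Alas2 (y axis, CPM, log axis) against the beta-globin gene Hbb-bt (x axis, CPM, log axis) in each of the 32 libraries, with fetal batch A in blue, fetal batch B in green and adults in orange. The adult library at 118.8 CPM of Alas2 is 10000 ppm replicate 2, with 424 CPM of Hbb-bt.

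No enzyme after Alas2 was called between adult groups in the fit over all 17 adult libraries, which does not exclude a difference. Cpox at 2500 against 1250 ppm had a log2 fold change of -0.51 ± 0.28 (SE; adjusted p = 0.308). In 1250 ppm against untreated wild type no gene of the 8 was called, against 11.4% of all genes (1524 genes). None was called at 2500 ppm against untreated wild type (0.487% of all genes), between 10000 and 2500 ppm (0% of all genes, with 1445 at an unadjusted p below 0.05) or between 2500 and 1250 ppm (1.91%). Alad had 32.4, 30.1 and 43.7 CPM in untreated replicates 1, 2 and 3, and means of 45.3 ± 7.38 at 1250 ppm (SD, n = 4), 38.6 ± 10.8 at 2500 ppm (SD, n = 6) and 46.5 ± 13.1 at 10000 ppm (SD, n = 4). The groups overlapped. Its log2 fold change at 10000 ppm was 0.40 ± 0.23 (SE; adjusted p = 0.326), with a 95% interval from -0.06 to 0.86.

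Urod had group means from 64.0 to 74.2 CPM and Uros from 12.6 to 15.1 CPM over the 4 adult groups, and Fech from 64.3 to 74.9 CPM. Cpox had 58.0, 56.5 and 170.4 CPM in the untreated replicates, so that replicate 3 alone was above all 14 dosed libraries, which ran from 53.0 to 117.6 CPM. The same replicate had the erythroid sum of 1108 CPM, against 306 and 290 CPM in replicates 1 and 2. Within the adult groups, the log2 level of Fech (r = 0.886), Urod (0.856), Cpox (0.818) and Alad (0.811) had a Pearson r above 0.8 with that of the erythroid sum. It was 0.543 for Uros, 0.227 for Alas2, 0.091 for Tfrc and -0.283 for Slc25a37. These are descriptions over 17 libraries. The sum adds CPM, so its highest genes weigh most. In the untreated libraries Car1 made up much of it, while Slc4a1 and Hbb-bt added little. An r with this sum is therefore no measure of erythroid content.

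Tfrc had negative log2 fold changes against untreated wild type at each dose, and none passed the test. It had 522.7, 229.4 and 247.4 CPM in untreated replicates 1, 2 and 3. Its medians were 201.6 CPM at 1250 ppm, 228.4 at 2500 ppm and 229.9 at 10000 ppm. Log2 fold changes against untreated wild type, which share the same 3 control libraries, were -0.69 ± 0.27 (SE; adjusted p = 0.103), -0.67 ± 0.25 (SE; adjusted p = 0.215) and -0.51 ± 0.27 (SE; adjusted p = 0.283). Without untreated replicate 1 they were -0.22, -0.18 and -0.01 (adjusted p from 0.639 to 0.986). Slc25a37 had 142.1, 134.1 and 134.1 CPM in untreated mice and 103.7 to 106.9 CPM at 1250 ppm. Those 2 groups did not overlap, with a log2 fold change of -0.38 ± 0.19 (SE; adjusted p = 0.181) when the spread of all adult groups was used, and an adjusted p of 0.00365 when only the 2 groups were.

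**Figure D4:**
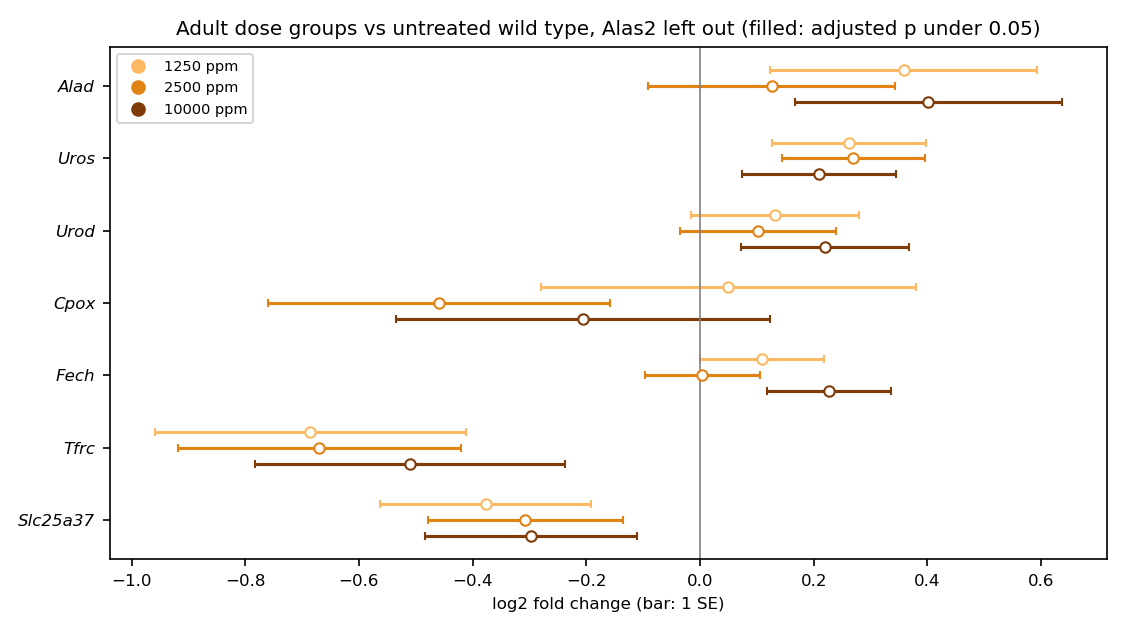
Log2 fold changes (x axis; bars, 1 SE) of the 7 genes other than Alas2 at each doxycycline dose against untreated wild type. No point is filled, since no adjusted p was below 0.05, and the points of Tfrc run from -0.69 to -0.51.

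Among the 4 lists, 5 of 35 genes were called at 1250 ppm against untreated wild type, against 11.4% of all genes. Hmox1 was higher by 2.80 ± 0.72 (SE, log2; adjusted p = 0.0253), Slc25a39, a mitochondrial carrier, by 0.38 ± 0.07 (SE; adjusted p = 0.0105), and Bach1, a heme-sensing repressor, was lower, at -0.37 ± 0.10 (SE; adjusted p = 0.0248). The other two, both of iron-sulfur cluster assembly, were Isca2 (-0.53, adjusted p = 0.0243) and Iscu (0.36, adjusted p = 0.0207). Macrophage markers, 4 of 7 called higher in the same comparison, were not of 1 direction: C1qa had 1.74 to 15.6 CPM against 0.125 to 0.482 CPM in untreated mice, and Vcam1 had 96.8 to 159 CPM against 334 to 442 CPM (adjusted p = 0.0536). Their part was not tested. At 2500 and 10000 ppm none of the 4 lists' genes was called against untreated wild type (0.487% and 1.27% of all genes were). Between 10000 and 1250 ppm 5 of 35 were called, against 18.1% of all genes: Slc25a39 (-0.34), Tmem14c (-0.30), Iscu (-0.28) and Snx3 (-0.24) were lower and Fam210b (0.34) was higher. Between 2500 and 1250 ppm, where 1.91% of all genes were called, Slc25a39 alone was called (-0.25). Slc25a39 declined with dose by 0.09 ± 0.03 (SE, log2) per doubling (adjusted p = 0.0369), and Fam210b rose by 0.12 ± 0.04 (SE; adjusted p = 0.0447). Alas1 did not pass the test at any dose, with means of 810 ± 156 CPM in untreated (SD, n = 3) and 545 ± 189 CPM at 10000 ppm (SD, n = 4).

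Between stages, 7 of the 8 genes were higher in the fetal flox control than in untreated adult wild type. Of all genes, 30% were called higher and 59% in either direction. Alas2 differed most, with a log2 fold change of 7.42 ± 0.38 (SE; adjusted p = 4.23e-05). Cpox followed at 1.45 ± 0.50 (adjusted p = 0.0423), Alad at 1.39 ± 0.26 (adjusted p = 0.00393) and Fech at 0.91 ± 0.20 (SE; adjusted p = 0.00772). Urod (0.63), Uros (0.60) and Slc25a37 (0.33) were higher by less. Tfrc was the exception, at -0.77 ± 0.32 (SE; adjusted p = 0.0766). The median of the 8 was 0.77 against 0.00 over all genes. Tissue, stage, batch, U2af1 genotype and the adult mice's Cre and transgenes cannot be told apart here. The fetal libraries compared were all of batch A. In batch B, Fech had 56.73 CPM in the Vav1-Cre only library and 47.26 (mean) in S34F, below the untreated adult mean, 64.31. Slc25a37 was also lower there, at 113 and 114.2 against 136.8 CPM. Alas2, Alad, Uros, Urod and Cpox stayed above their untreated adult means. Cpox was at 103.9 and 96.86 against 94.98 CPM. Batch B was not tested against the adults.

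Only Alas2, Alad and Fech kept their call when each library of the stage comparison was left out in turn. Without flox control replicate 4 or 5, Uros, Urod, Cpox and Slc25a37 lost theirs (3 of 8 called, against 47% and 46.7% of all genes). Without untreated replicate 1, where 50.7% of all genes were called, Uros, Urod and Cpox lost theirs. Without untreated replicate 2 (47.5% of all genes), Slc25a37 did so as well and Tfrc was called lower. Without untreated replicate 3 (60.8% of all genes) all 8 were called, Tfrc as lower. Slc4a1 and Hbb-bt were at 287 and 143 CPM or more in every flox control library, and below 1 CPM in every untreated adult one. Car1 ran the other way, at 18.5 to 51.6 CPM against 166.5 to 629.6 CPM. Alb, an albumin transcript of hepatocytes, was at 45.3 to 331 CPM in the flox control and at 0 in the adults. Their part in the difference was not tested.

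Of the 35 genes of the 4 lists, 25 were called between stages, 18 as higher and 7 as lower in the fetal flox control. Of all genes, 59% were called, 30% as higher and 29% as lower. Of the 11 heme synthesis partners, 6 were higher in the fetal flox control and 3 lower. Tmem14c, which aids porphyrin transport in mitochondria, was higher by 0.86 ± 0.13 (SE, log2; adjusted p = 0.00142), whereas Alas1 was lower, at -0.83 ± 0.21 (SE; adjusted p = 0.0127). Slc40a1 was lower, at -1.79 ± 0.16 (SE; adjusted p = 0.000219), and Hmox1 higher, at 3.33 ± 0.20 (SE; adjusted p = 6.39e-05). Of 10 iron-sulfur cluster genes, 7 were higher and 1 lower, with Glrx5 at 1.04 ± 0.19 (SE; adjusted p = 0.00307).

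**Figure D5:**
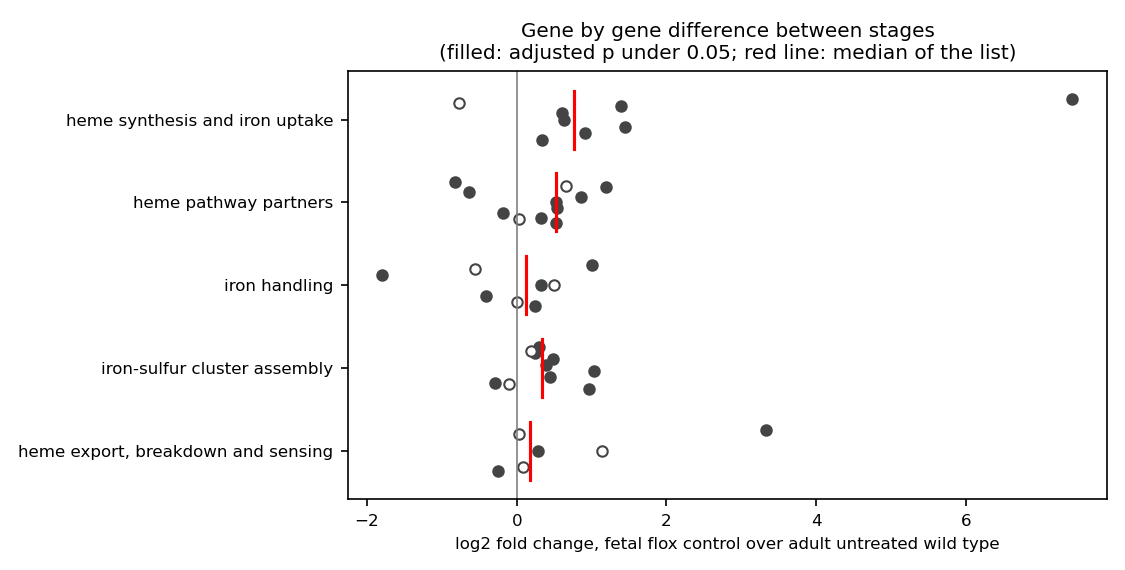
Log2 fold change of the fetal flox control over adult untreated wild type (x axis) for each gene (points) of the heme synthesis and iron uptake genes and of 4 other lists (y axis), with filled points at an adjusted p below 0.05 and a red line at the median. The medians are 0.77 for the 8 genes and 0.52 for the heme pathway partners.

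The 8 genes varied together in the 9 batch A libraries more than in the 17 adult ones. Over the 9 batch A libraries, all 28 pairs had a positive Pearson correlation of log2 CPM, with a median of 0.818 and a range from 0.314 to 0.968. With group means subtracted, the median was 0.897. Over the 17 adult libraries, 16 of 28 pairs were positive, with a median of 0.179. These correlations share library and depth and are given as descriptions. Batch A included flox control replicate 3 and heterozygous deletion replicate 3, which were extreme within their groups in all 8 genes. The correlations were not computed without them.

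The genes whose levels were most like those of Alas2 over batch A were Fn3k (r = 0.975), Rhd (0.968) and Btnl10 (0.965), and over the adult libraries Hbb-bt (0.986), Dmtn (0.916) and Grk5 (0.9). For Tfrc they were Slc6a9 (0.981), Abcb10 (0.941) and Hbb-bt (0.933) over batch A, and G2e3 (0.905), Parpbp (0.86) and Pole4 (0.854) over the adult libraries. The comparison took 9672 genes in batch A and 9601 in adults, with a mean of at least 50 counts. Over the adults, 10000 ppm replicate 2 was far above all other libraries in both Alas2 and Hbb-bt, so it weighs heavily in the r values of Alas2. Those of batch A include flox control replicate 3 and heterozygous replicate 3. None were computed without these libraries.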

How the data were processed

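The authors deposited raw whole-number counts per Ensembl gene, 1 column per library. Per the labels' design text, reads were mapped with HISAT2 2.1.0 to the Ensembl GRCm38 genome after depletion of ribosomal RNA. The counting tool, annotation release and use of strand are not given in the sources used here. Symbols, coordinates and exon lengths came from GENCODE M21. Total counts of 26.6 M to 71.3 M per library limit precision for low genes such as adult Alas2.

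Counts were tested with edgeR 4.0.16 (R 4.3.3) in its quasi-likelihood test, with filterByExpr and TMM factors, Benjamini-Hochberg adjustment over all genes and a threshold of 0.05. The 9 batch A libraries, the 5 batch B libraries, the 17 adult libraries, the 14 dosed libraries (log2 dose) and the 6 libraries of the stage comparison were fitted separately. Levels are CPM with TMM factors over all 32 libraries, with a prior count of 2 on the log2 scale. The scripts were tested on simulated data.

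The members and lists were chosen with earlier results of these data known. Of each list, up to 3 called genes with the largest absolute log2 fold change were named in each comparison, except that some are not reported here, and Alas1 was also named after its values were seen. Genes most like Alas2 and Tfrc were the 3 with the highest Pearson correlation. Replicates are samples with separate labels, and nothing states separate animals, so p-values measure only the spread between these samples. Alternatives were DESeq2 1.42.0, other scaling, other filters, other sets of libraries, a replicate block and each library left out. Splicing and U2af1 were not analysed here.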

Additional observations from a re-analysis of the deposited data

Results flagged for a closer look

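Of 32 checks of a library lying far from the rest of its group (groups of 4 to 6 libraries, log2 CPM), 4 were positive. Chance gives about 1 in 20 for a single check. The checks were not independent, because they share libraries. Alad, Urod and Cpox also varied together within adult groups (r from 0.808 to 0.956). An excess over chance can therefore not be read from the count. All 4 were high values in adult replicates labelled 4. At 2500 ppm, replicate 4 had 59.8 CPM of Alad (the other libraries had 30.1 to 38.2), 92.1 CPM of Urod (61.2 to 68.5) and 111.9 CPM of Cpox (53.0 to 67.5). At 10000 ppm, replicate 4 had 93.3 CPM of Urod (65.7 to 69.2). The erythroid sum was the highest of its group in both libraries, at 952 and 1374 CPM, and its part was not tested.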

How the results depend on the processing

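Over 1433 values of single genes under an alternative, 1351 kept their direction and side of the threshold, 38 lost and 43 gained a call, and 1 reversed: Fech, homozygous against heterozygous deletion, was 0.21 (log2; adjusted p = 0.0164) with flox control 3 and heterozygous deletion 3 both left out. The numbers of the 8 genes called changed as follows, and percentages in brackets are the shares of all genes called in the same fits. Causes were not tested. For homozygous deletion against flox control (3 called), no filter on low counts gave 6 (22.7%) and only the groups compared 4 (37.6%). Both libraries left out gave 8 (45.9%), and leaving out single libraries gave 3 to 6 (30.5% to 42.7%). For heterozygous deletion against flox control (0), no filter gave 1 (1.02%), both libraries left out 8 (4.36%) and single libraries 0 to 2 (0% to 2.05%). For homozygous against heterozygous deletion (1), these gave 4 (23.6%), 5 (47.3%) and 1 to 2 (31% to 39.4%). DESeq2 (45.9%), only the groups compared (44%) and all 15 fetal libraries (43.7%) gave 2 each. For S34F (0), DESeq2 (4.32%) and no filter (3.56%) gave 1, Tfrc, and leaving out single libraries 0 to 1 (0.113% to 6.66%). For the stage comparison (7), no filter gave 8 (34%), with Tfrc lower, and leaving out single libraries gave 3 to 8 (46.7% to 60.8%). For 10000 ppm against untreated wild type (1), RLE factors (1.02%) and leaving out genes over 1% of a library (1.11%) gave 0. A mean of at least 50 counts (0.905%) and only the groups compared (0.00812%) gave 0 as well. For 10000 ppm against 1250 ppm (1), only the groups compared gave 0 (8.64%). Leaving out single libraries gave 0 to 1 in both and in the dose trend (1). The shares of all genes were then 0% to 6.14%, 8.41% to 21.2% and 0.666% to 17%, in that order. For 1250 ppm against untreated wild type (0), only the groups compared gave 1 (26%). DESeq2 gave no adjusted p for adult Alas2, so the 3 adult counts with a call have no DESeq2 value.

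Whether replicate numbers pair the samples cannot be decided here, because no correlations of differently numbered libraries are given beside those of same-numbered ones. Same-numbered libraries correlated above 0.1 in 0 of 7 pairs of batch A (-0.244 to 0.064) and 6 of 19 adult pairs (-0.222 to 0.505). The highest was that of replicates 4 at 10000 and 2500 ppm. With a replicate block, the count called was 2 for homozygous against flox control (31.9% of all genes). It was 0 for heterozygous against flox control (0%) and for homozygous against heterozygous (34.1%). It was also 0 for 10000 ppm against untreated wild type (1.15%), 10000 against 1250 ppm (8.88%) and the trend (0.257%). No paired analysis was possible because fewer than 2 numbers were shared in the S34F and stage comparisons.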
